A study of Mus musculus with 6 samples.

Results

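The genes described here are 35 smooth muscle genes of the contractile apparatus and of the myocardin programme that drives its transcription, measured by bulk RNA-seq in mouse aorta. They were chosen by gene name, and all 35 were found among the 55487 genes of the count table. All 35 were also among the 16565 genes tested, which had a count over 10 in all libraries of at least 1 group. Aortas from 3 Prdm16 iSM KO mice and 3 Control mice were compared, each library from a separate male mouse. Prdm16 encodes a zinc finger transcription regulator. The iSM KO mice were homozygous for an allele with a floxed exon 9 (Prdm16 F/F), the Control mice carried the wild-type allele (Prdm16 W/W), and both groups carried the Myh11-CreERT2 transgene on a C57BL/6 background. The transgene is driven by the promoter of Myh11, itself among the 35 genes, and sits on the Y chromosome, which limits the model to males. Both groups received 10 injections of 1 mg tamoxifen, 1 a day, from 8 weeks of age, and aortas were taken after 2 weeks of washout and a further 60 days. The adventitia had been stripped before RNA was extracted, so the libraries represent the media and intima with whatever outer tissue remained.

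Vascular smooth muscle cells contract when myosin light chain kinase phosphorylates the regulatory light chain of smooth muscle myosin, and relax when myosin phosphatase removes that phosphate. The thin filaments on which the myosin pulls are built of smooth muscle actins with tropomyosin, caldesmon and calponin, and they are anchored to dense bodies, intermediate filaments and adhesion plaques at the membrane. Transcription of most of these genes depends on serum response factor (SRF), which binds a short DNA element called the CArG box, and on its coactivators myocardin and the myocardin-related factors MRTF-A and MRTF-B.

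The libraries held between 24911609 and 40460467 counts, and the 35 genes took 4.83% to 5.86% of the counts in Control libraries and 5.66% to 5.99% in iSM KO libraries. Levels are given as normalised CPM, that is, counts relative to the TMM-scaled library total. Even Mrtfa, the rarest of the 35, rests on at least 671 counts in each library. Prdm16 itself had 183, 223 and 178 CPM in Control and 93.6, 113 and 79.7 CPM in iSM KO aortas, lower in each iSM KO library. The counts cover the whole gene and do not separate exon 9. The markers of smooth muscle were abundant in every library, among them Acta2 at no less than 6933 CPM and Myh11 at no less than 7422 CPM. In whole tissue, fewer smooth muscle cells and less RNA per cell cannot be told apart.

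Within the programme 6 genes were higher in iSM KO aortas and none was lower at a false discovery rate (FDR) of 0.05. Without iSM KO replicate 1 the number higher was 3. The 6 were Actg2, Des, Pgm5, Myocd, Ldb3 and Cnn3, and they make up 17.1% of the 35, where 4.26% of all tested genes were higher. For lower expression the share over all tested genes was 3.30%, and 1 of the 35 genes, Csrp1, was lower at an unadjusted p under 0.05 without passing the adjusted threshold. By DESeq2 in place of edgeR, 9 of the 35 were higher (5.69% of all tested genes) and 1 was lower (4.64% of all tested genes). Most of these genes are abundant, and abundant genes were called more often: among the 1228 genes with a mean of at least 100 CPM, 11.8% were higher, against 6 of the 31 such smooth muscle genes (19.4%). This level was chosen after the values were seen. Only Actg2 and Des also had a fold change over 2, which held for 1.40% of all tested genes.

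Small differences in the same direction ran through much of the list. The log2 fold change of iSM KO over Control was above 0 for 28 of the 35 genes and below 0 for 7, with a median of 0.17 against -0.01 over all tested genes. In 14 of the 35 (40.0%) every iSM KO library lay above every Control library, a pattern found in 14.9% of tested genes, and in 2 of the 35 (5.71%), Tpm2 and Csrp1, every iSM KO library lay below, as in 13.0% of tested genes. Most of the 35 are abundant, and neither these shares nor the median was compared with genes of similar level. The summed level of all 35 was 51263, 57279 and 50365 CPM in Control 1 to 3 and 59415, 59151 and 54332 CPM in iSM KO 1 to 3. The groups overlapped in this sum, since Control 2 exceeded iSM KO 3.

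**Figure D1:**
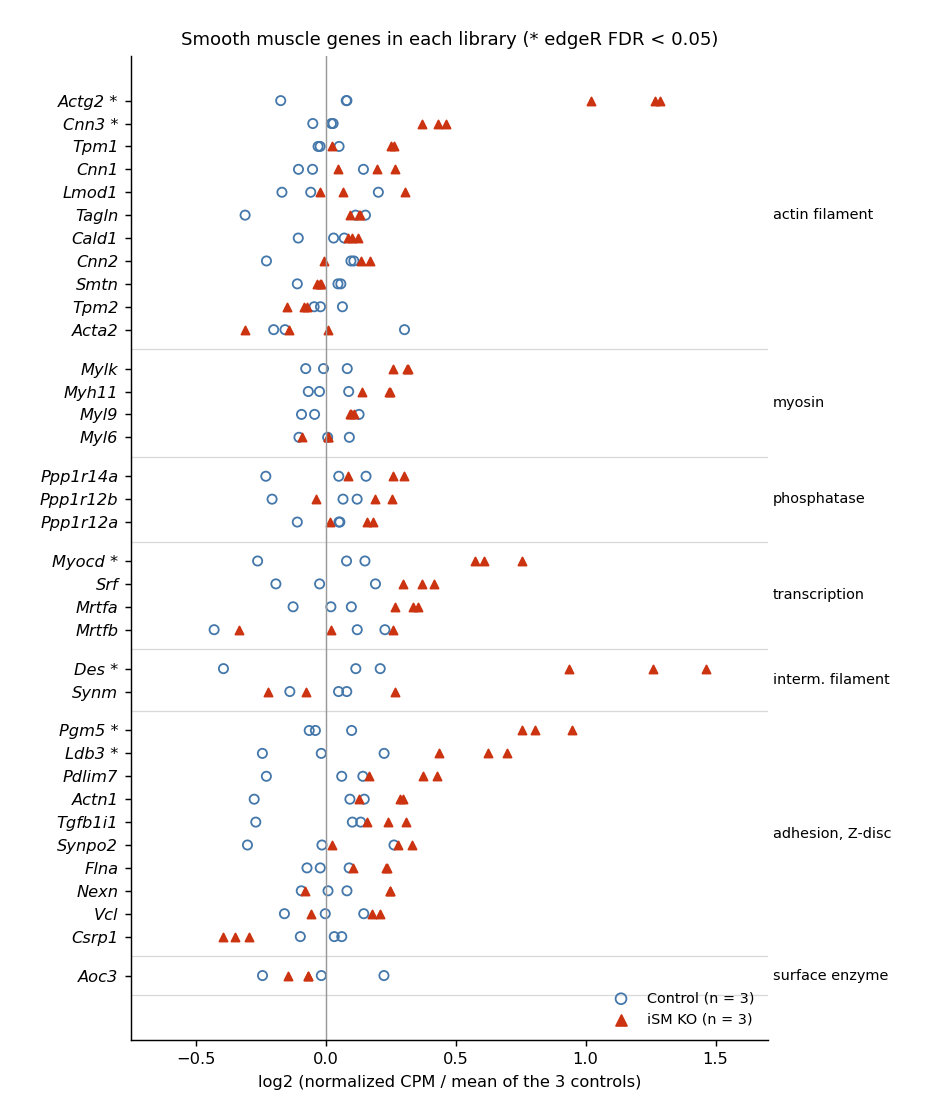
Level of each of the 35 smooth muscle genes in each library, as the log2 ratio of its normalised CPM to the mean of the 3 Control libraries (horizontal axis), with genes grouped by role (vertical axis). Open circles are Control and filled triangles iSM KO libraries, asterisks mark the 6 genes with an FDR under 0.05, and the triangles of Actg2 and Des lie furthest to the right while those of Tagln and Smtn lie among the circles.

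The actin filament genes hold Acta2, the most abundant of the 35 genes per kb of exon, and Actg2, the gene with the smallest FDR. Acta2, the smooth muscle alpha actin and the standard marker of these cells, had 7721, 10621 and 7491 CPM in Control and 8659, 7799 and 6933 CPM in iSM KO aortas. The ranges overlapped in part, with the highest value in Control 2 and the lowest in iSM KO 3, and the log2 fold change was -0.14 with a 95% interval from -0.52 to 0.24 (FDR = 0.660 from edgeR's quasi-likelihood test). Actg2, the gamma smooth muscle actin that predominates in visceral muscle, had 136, 135 and 114 CPM in Control and 308, 313 and 260 CPM in iSM KO aortas. Every iSM KO library was therefore well above every Control library, and Actg2 rose by 1.20 ± 0.11 on the log2 scale (SE), at an FDR of 0.000357. Actg2 lies at chr6:83512905-83536265 on the minus strand (GRCm38).

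Among the calponins, which bind actin and restrain the myosin ATPase, Cnn3 passed the test. Cnn3, acidic calponin, had 244, 243 and 231 CPM in Control and 323, 329 and 309 CPM in iSM KO aortas, with little spread in either group. On the log2 scale it rose by 0.42 ± 0.08 (SE) at an FDR of 0.0109, and it did not pass without iSM KO replicate 1 (FDR = 0.0591) or 2 (FDR = 0.0830). Cnn1, the smooth muscle calponin, had 867, 993 and 835 CPM in Control and 1082, 1030 and 928 CPM in iSM KO aortas, with 1 iSM KO library inside the Control range (log2 fold change 0.17, FDR = 0.373). Cnn2 was close to its Control level, with a log2 fold change of 0.10. Cnn3 lies at chr3:121426497-121458207 on the plus strand. An antisense gene, Gm42928, shares 17.7% of its exon bases at a mean of 6.86 CPM. In addition, 2 pseudogenes, Gm17936 and Gm4815, match Cnn3 over 994 bases. Neither was among the tested genes and their levels were not looked up, so the Cnn3 count holds some uncertainty.

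None of the other thin filament genes passed the test, though not all stayed within their Control range. Tagln, encoding transgelin, an actin-binding protein used as an early smooth muscle marker, had 3613, 4852 and 4981 CPM in Control and 4785, 4911 and 4897 CPM in iSM KO aortas. The iSM KO libraries lay inside the Control range, and the log2 fold change of 0.12 had a 95% interval from -0.20 to 0.44. Of the exon bases of Tagln, 62.4% are shared with an antisense gene, Gm48529, which had a mean of 72.8 CPM, and whether counting used strand is not stated. Caldesmon (Cald1), smoothelin (Smtn), leiomodin (Lmod1, an actin filament nucleator) and tropomyosins Tpm1 and Tpm2 had log2 fold changes of 0.10, -0.03, 0.12, 0.18 and -0.10, none of which passed the test. The groups did not overlap for Cald1, which lay higher in iSM KO aortas, and for Tpm2, which lay lower. Tpm1 had 1228, 1168 and 1161 CPM in Control and 1424, 1411 and 1206 CPM in iSM KO aortas, so only iSM KO 3 lay inside the Control range. Smtn shares 16.3% of its exon bases with an antisense gene, Gm11946, which had a mean of 37.6 CPM.

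**Figure D2:**
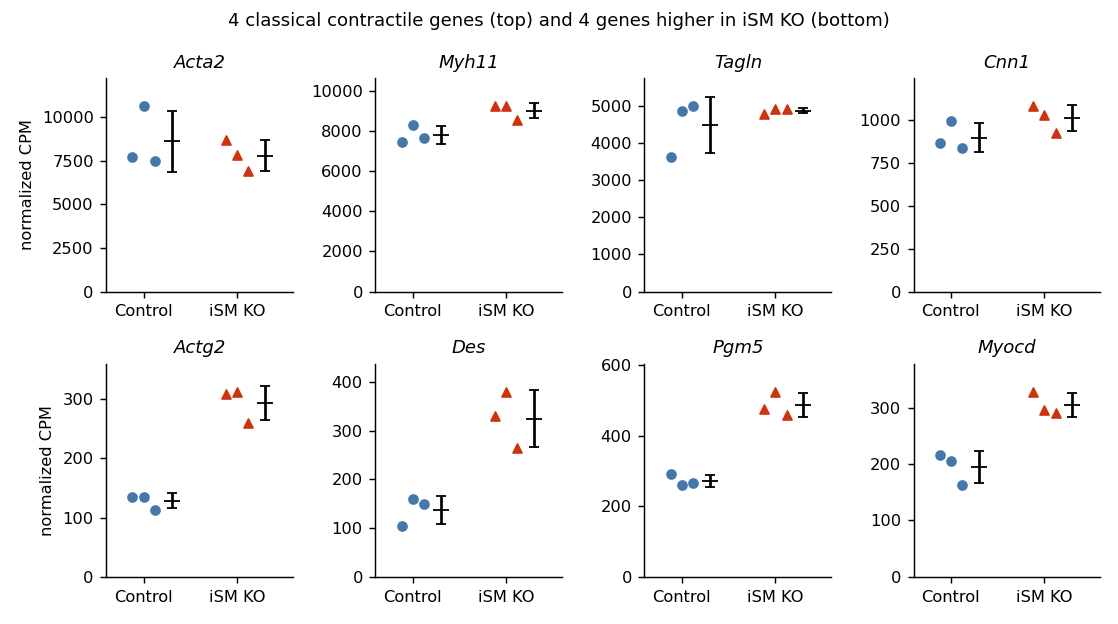
Normalised CPM of 4 classical contractile genes (top row) and of 4 genes with an FDR under 0.05 (bottom row) in the 3 Control libraries (circles) and the 3 iSM KO libraries (triangles), with the mean and SD beside each group and vertical axes starting at 0. Acta2 ran from 7491 to 10621 CPM in Control against 6933 to 8659 CPM in iSM KO aortas, whereas every iSM KO value of Actg2, Des, Pgm5 and Myocd lay above every Control value.

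Of the motor genes, Myh11, Mylk and Myl9 had small upward differences and Myl6 a value just below 0, none of which passed the test. Myh11, the heavy chain of smooth muscle myosin, had 7422, 8266 and 7646 CPM in Control and 9223, 9214 and 8562 CPM in iSM KO aortas. Each iSM KO library exceeded each Control library, but the log2 fold change of 0.21 had a 95% interval from -0.06 to 0.48 (FDR = 0.333). Mylk, the kinase that phosphorylates the regulatory light chain, had 1793, 1683 and 1605 CPM in Control and 2104, 2108 and 2027 CPM in iSM KO aortas, again without overlap. The difference was 0.30 ± 0.10 on the log2 scale (SE), with an FDR of 0.104 by edgeR and of 0.00747 by DESeq2. The regulatory light chain Myl9 and the essential light chain Myl6 had log2 fold changes of 0.10 and -0.02. Myl6 shares near-identical sequence with processed pseudogenes, so its count is uncertain.

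The phosphatase genes had FDR values of 0.288 to 0.534. The targeting subunits of myosin phosphatase, Ppp1r12a and Ppp1r12b, had log2 fold changes of 0.12 and 0.14, and the inhibitor CPI-17 (Ppp1r14a) had 0.22. Their groups overlapped in each case. Ppp1r14a, for instance, ran from 130 to 169 CPM in Control and from 161 to 187 CPM in iSM KO aortas.

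The transcription regulators of the programme had a median log2 fold change of 0.34 over 4 genes, of which Myocd passed the test. Myocd, encoding the muscle-restricted SRF coactivator myocardin, had 216, 205 and 162 CPM in Control and 328, 296 and 290 CPM in iSM KO aortas. The lowest iSM KO value was well above the highest Control value, and Myocd rose by 0.65 ± 0.12 on the log2 scale (SE, FDR = 0.0109). Without iSM KO replicate 1 its FDR was 0.0511. The gene lies at chr11:65176561-65269989 on the minus strand. Srf had 74.4, 86.3 and 66.2 CPM in Control and 97.8, 100.8 and 92.8 CPM in iSM KO aortas, and Mrtfa, encoding MRTF-A, had 32.8, 31.1 and 28.1 CPM in Control and 38.6, 36.8 and 39.2 CPM in iSM KO aortas. Neither gene's groups overlapped, but neither passed the threshold with edgeR. Srf differed by 0.36 ± 0.10 (SE, FDR = 0.0676) and Mrtfa by 0.32 ± 0.08 (SE, FDR = 0.0543), both on the log2 scale. With DESeq2 both passed, at FDR values of 0.0264 and 0.0398. Mrtfb, encoding MRTF-B, had a log2 fold change of 0.00 with a 95% interval from -0.42 to 0.42, and its transcripts share a stretch of sequence with many others, which makes its count uncertain.

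The promoters of the programme were searched for the CArG box because the genes share SRF as their textbook regulator and because its cofactor gene Myocd was among those higher. The element was taken as the consensus of 10 bases, CC, then 6 bases that are each A or T, then GG, a pattern that is its own reverse complement, so that both strands were searched. RefSeq promoters (GRCm38.p6, 250 bases before to 50 after the transcript start) were matched for 28 of the 35 genes. The genes with no entry were Actg2, Tagln, Myh11, Myocd, Nexn, Tgfb1i1 and Aoc3. A box stood in 7 of 36 promoters (19.4%), belonging to 6 genes, and in 535 of all 32851 promoters (1.63%). The stretch around each box is shown, 5′ to 3′ on the strand of the gene, with the box in capitals.
Srf, chr17:46556190-46556269, minus strand: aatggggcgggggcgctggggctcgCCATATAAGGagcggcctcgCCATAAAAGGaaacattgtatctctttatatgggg
Ldb3, chr14:34588682-34588741, minus strand: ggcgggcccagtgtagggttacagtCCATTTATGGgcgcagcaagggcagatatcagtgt
Cnn2, chr10:79988519-79988578, plus strand: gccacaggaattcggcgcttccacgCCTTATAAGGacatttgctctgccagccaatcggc
Myl9, chr2:156775278-156775337, plus strand: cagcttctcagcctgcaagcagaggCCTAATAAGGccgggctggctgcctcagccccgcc
Myl6, chr10:128493025-128493084, minus strand: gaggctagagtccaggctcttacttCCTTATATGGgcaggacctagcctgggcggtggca
Vcl, chr14:20929148-20929205, plus strand: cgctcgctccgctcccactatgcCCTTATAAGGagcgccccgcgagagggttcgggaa
The Srf promoter holds 2 boxes, starting 82 and 62 bases before the transcript start, and the boxes of Cnn2, Myl9, Myl6 and Vcl start 56, 161, 50 and 227 bases before it. The box of Ldb3 stands 35 bases before the nearer of its listed starts. Of these 6 genes only Ldb3 was past the FDR threshold, whereas Cnn2, Myl9, Myl6 and Vcl had log2 fold changes between -0.02 and 0.11. A match of letters is not a measured binding site, and a promoter without a match says only that these letters are absent from the window.

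The intermediate filament genes differed from each other. Des encodes desmin, the muscle intermediate filament that links dense bodies, and had 105, 159 and 149 CPM in Control and 329, 380 and 263 CPM in iSM KO aortas. The lowest iSM KO value exceeded the highest Control value by more than 100 CPM, and Des rose by 1.24 ± 0.18 on the log2 scale (SE, FDR = 0.00381), the highest value of the 35. Des lies at chr1:75360329-75368579 on the plus strand. Synm, encoding synemin, which assembles together with desmin, had 134, 153 and 156 CPM in Control and 127, 178 and 140 CPM in iSM KO aortas, with overlapping groups and a log2 fold change of 0.00 (95% interval from -0.28 to 0.29).

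Among 10 genes of adhesion plaques, dense bodies and Z-discs, Pgm5 and Ldb3 were higher and the rest did not pass the test. Pgm5, aciculin, a phosphoglucomutase relative without known enzyme activity that sits at adherens junctions of muscle, had 291, 260 and 265 CPM in Control and 476, 524 and 459 CPM in iSM KO aortas. The groups were far apart, and Pgm5 rose by 0.84 ± 0.09 on the log2 scale (SE, FDR = 0.000960). Ldb3, also called ZASP or Cypher, a PDZ and LIM protein of the Z-disc, had 112, 133 and 96.1 CPM in Control and 185, 175 and 154 CPM in iSM KO aortas. Its groups were also apart, by a smaller margin, and the log2 difference was 0.59 ± 0.12 (SE, FDR = 0.0226). Ldb3 lost its call without Control replicate 1 or 3 or iSM KO replicate 1 or 2, with FDR values of 0.0558 to 0.0991. Pgm5 lies at chr19:24683016-24861855 and Ldb3 at chr14:34526603-34588682, both on the minus strand.

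Csrp1, encoding a LIM protein (CRP1) of the actin cytoskeleton, went the other way. It had 1200, 1225 and 1096 CPM in Control and 920, 956 and 891 CPM in iSM KO aortas. All iSM KO libraries were below all Control libraries, yet the difference of -0.35 ± 0.09 (SE, log2 scale) had an FDR of 0.0527, just short of the threshold, and it passed with DESeq2 (FDR = 0.00254). Pdlim7, a PDZ and LIM protein, Flna, the filamin that crosslinks actin, and Tgfb1i1, the paxillin relative Hic-5, had log2 fold changes of 0.33, 0.19 and 0.24 without overlap between groups and without passing the test. Actn1 (alpha-actinin), Synpo2 (synaptopodin 2), Nexn (nexilin) and Vcl (vinculin) had values of 0.24, 0.22, 0.15 and 0.11 with overlapping groups. Vcl shares 25.5% of its exon bases with Ap3m1 on the opposite strand. Aoc3, a surface amine oxidase of smooth muscle and adipocytes, ran from 267 to 369 CPM in Control and from 286 to 301 CPM in iSM KO aortas (log2 fold change -0.09).

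The 6 higher genes were not among the most abundant ones. To compare levels between genes, CPM was divided by the length of each gene's merged exons. On this per-kb scale the Control order began with Acta2 at 3921 ± 794, Tagln at 2254 ± 380, Myl9 at 1544 ± 126, Flna at 1245 ± 72.3 and Myh11 at 1024 ± 57.5 CPM per kb (SD, n = 3). From Acta2 down to Tpm2, neighbours in this order had Control values that did not overlap, while those of Tpm2 and Cnn1 did. Further down many neighbours shared their range, such as Cnn3 and Pgm5. At the other end were Mrtfb at 6.79 ± 1.54 and Mrtfa at 5.02 ± 0.39 CPM per kb. None of the 12 genes with the highest Control level per kb was past the threshold with edgeR. Csrp1 was the only gene of the 12 at an unadjusted p under 0.05 and the only gene past the threshold with DESeq2. Their log2 fold changes ran from -0.35 to 0.24 with a median of 0.11. All 6 higher genes were among the other 23, whose median was 0.22. Across the 35 genes, Pearson's r between log level per kb and log2 fold change was -0.27 and Spearman's rank correlation -0.35, given as a description since genes of a library are not independent. In iSM KO aortas Actg2 moved from place 19 to 13 in the order and Des from 28 to 22.

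**Figure D3:**
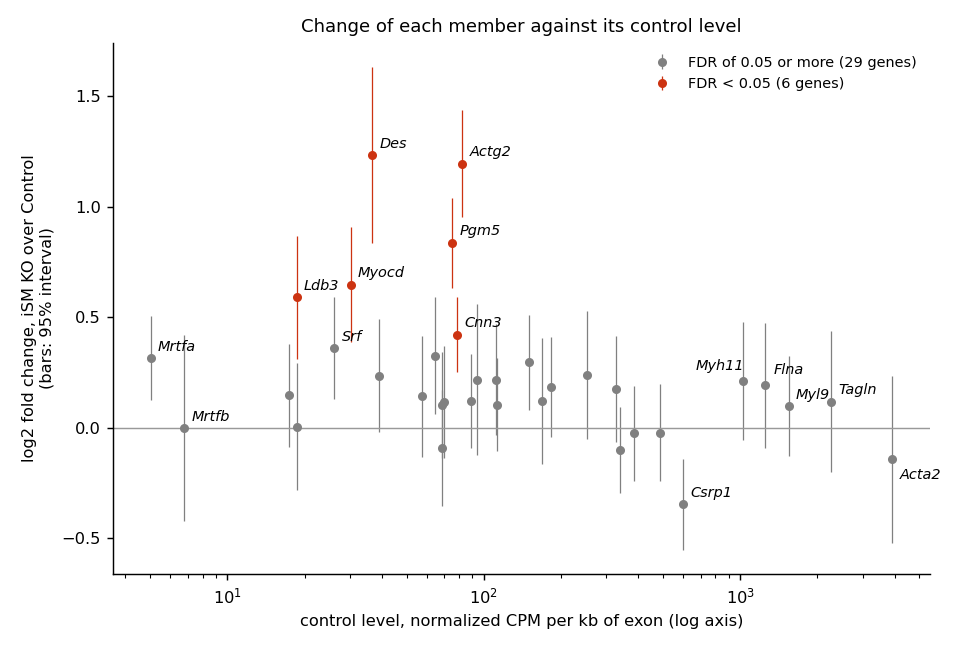
Log2 fold change of each of the 35 genes (vertical axis, with 95% intervals from the edgeR fit as bars) against its mean Control level in normalised CPM per kb of exon (horizontal log axis). The 6 genes with an FDR under 0.05 (red) all lie under 100 CPM per kb, while Acta2, Tagln, Myl9, Flna and Myh11, at 1024 CPM per kb or more, have intervals that include 0.

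Ratios of counts inside each library do not depend on library scaling. Of the counts on Acta2 and Actg2 together, Actg2 took 1.73%, 1.26% and 1.49% in Control and 3.44%, 3.85% and 3.62% in iSM KO aortas. The share was thus higher in every iSM KO library, at 3.64% ± 0.21 against 1.49% ± 0.23 (SD, n = 3, two-sided exact permutation p = 0.1, the smallest that 3 against 3 mice allow). Tpm2 took 44.1%, 45.0% and 47.0% of the Tpm1 and Tpm2 counts in Control and 39.5%, 39.9% and 42.4% in iSM KO aortas, without overlap (exact permutation p = 0.1). Cnn1 took 68.7% ± 1.55 of the calponin counts in Control and 66.8% ± 1.05 in iSM KO aortas (SD, n = 3), a difference with an exact permutation p of 0.2. Divided by the Myh11 count of the same library, the 6 higher genes were above every Control library in all iSM KO libraries, with mean ratios of iSM KO to Control from 1.16 for Cnn3 to 2.04 for Des. Divided by the Acta2 count, these ratios ran from 1.46 for Cnn3 to 2.57 for Des, again without overlap. Only these 6 genes, already called and without overlap in the same libraries, were divided in this way, so the ratios are a description.

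Other genes of smooth muscle contraction and its regulation were grouped in further lists, written with earlier results of these data known. Their counts stand beside the 4.26% of all tested genes that were higher, or 11.8% of those with a mean of at least 100 CPM, and the 3.30% that were lower. Of 29 tested genes for adhesion plaques and actin linkers, 8 were higher and 1 was lower, with a median log2 fold change of 0.15. The higher ones with the smallest FDR were Csrp2 (the LIM protein CRP2, 0.89), Pdlim3 (the Z-disc protein ALP, 1.17), Filip1l (0.67), Palld (palladin, 0.91), Svil (supervillin, 0.57), Flnc (muscle filamin, 0.98) and Fhl1 (a LIM-only protein of muscle, 0.47), with log2 fold changes in parentheses. Fblim1, encoding migfilin, a filamin-binding protein, fell by 0.86 on the log2 scale. Csrp2 had 457, 456 and 448 CPM in Control and 814, 882 and 833 CPM in iSM KO aortas, opposite in direction to its relative Csrp1.

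Of 25 other smooth muscle-enriched genes, 7 were higher and 1 was lower (median 0.25). The higher genes were Ntn4 (netrin 4, 1.04), Mustn1 (1.01), Cryab (alpha B-crystallin, 0.90), Itga5 (the fibronectin receptor subunit, 0.95), Mcam (CD146, 0.79), Mrvi1 (the IP3 receptor-associated substrate of cGMP kinase, 0.46) and Hspb1 (the small heat shock protein HSP27, 0.74). Hspb6, the small heat shock protein HSP20 that is phosphorylated during relaxation, was lower, with a log2 fold change of -0.57. Of 22 smooth muscle transcription genes, Carmn, the long non-coding RNA that binds myocardin, and Foxf1 were higher, with log2 fold changes of 0.72 and 0.56. Of the 22, 11 had a log2 fold change above 0 and 11 below, with a median of 0.04. Carmn had 161, 178 and 158 CPM in Control and 285, 305 and 227 CPM in iSM KO aortas, which did not overlap. Of 12 other actomyosin genes, mostly non-muscle isoforms, 1 was higher, Lmod2, the leiomodin of striated muscle, at under 1 CPM in every library. In that list 6 genes had a log2 fold change above 0 and 6 below (median -0.0034).

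Of 12 early response genes driven by SRF together with ternary complex factors, 5 were lower (Dusp1, Ier2, Fos, Btg2 and Mcl1), with a median log2 fold change of -0.69, where 3.30% of all tested genes were lower. Fos had 50.2, 213 and 39.3 CPM in Control and 13.8, 14.4 and 13.9 CPM in iSM KO aortas, so Control 2 stood far above the other Control libraries while the iSM KO libraries were alike. Of 18 genes listed for modulated smooth muscle cells, Tnfrsf11b (osteoprotegerin) was higher (0.67) and the median was -0.28.

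**Figure D4:**
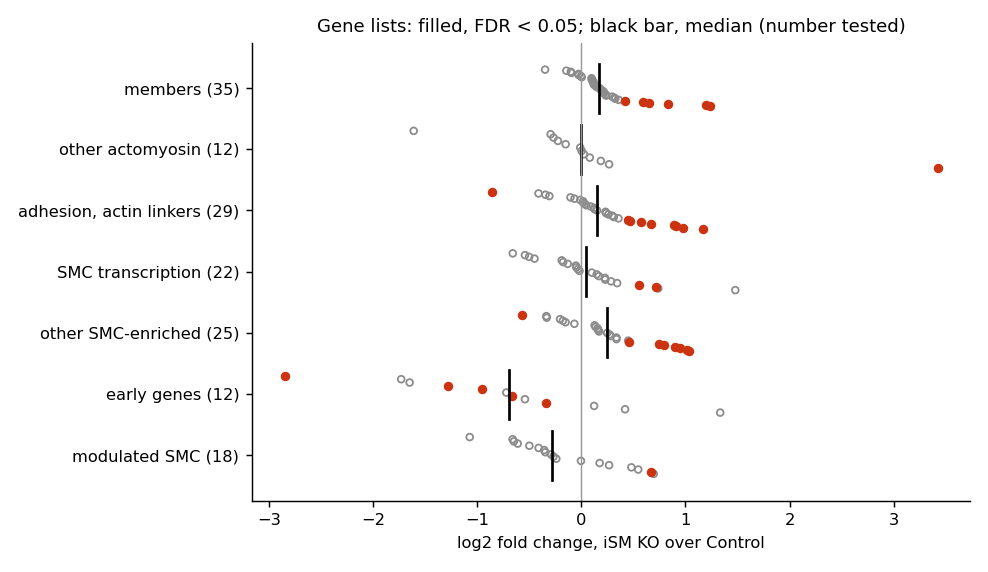
Log2 fold change, iSM KO over Control, of each tested gene in the 35-gene programme and in 6 other lists (number tested in parentheses). Filled points have an FDR under 0.05 and black bars are list medians, which run from -0.69 for the early response genes to 0.25 for the other smooth muscle-enriched genes.

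Markers of other cell types were summed in each library. The 10 endothelial markers summed to between 595 and 1151 CPM in Control and to 339, 545 and 879 CPM in iSM KO 1 to 3. All 10 had a log2 fold change below 0, with FDR values of 0.0677 to 0.755, and the groups overlapped for 9 of them. Macrophage markers summed to 39.8 to 43.9 CPM in Control and to 16.3, 16.8 and 47.2 CPM in iSM KO 1 to 3, so iSM KO 3 was like Control in both lists. Of 9 white adipocyte markers 7 were lower, and without Plin4, the most abundant of the list, they summed to 41.9, 238 and 126 CPM in Control and to 18.3, 16.7 and 21.4 CPM in iSM KO aortas. With Plin4 the sums were 519, 699 and 568 CPM in Control and 472, 562 and 483 CPM in iSM KO aortas, which overlapped. The 6 higher genes were above every Control library in iSM KO 3 too, but they had been called with that library in the fit. The part of endothelial cells, macrophages and adipocytes in the smooth muscle results was not tested. The 12 fibroblast markers summed to 833 to 1206 CPM in Control and 1049 to 1165 CPM in iSM KO aortas. Of the 12, 10 had a log2 fold change below 0 (median -0.65) and Clec3b was lower, while Col14a1 went the other way, from 116, 77.1 and 85.9 CPM in Control to 421, 411 and 372 CPM in iSM KO aortas.

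Des and Ldb3 are also expressed in striated muscle. Of its other markers, 7 of 12 in the cardiomyocyte list and 10 of 12 in the skeletal muscle list were under 1 CPM in every library. The heart markers Myh6, Tnni3 and Actc1 were each under 2 CPM in every library. The cardiomyocyte list without Ryr2 summed to 7.34 to 13.5 CPM in Control and 8.50 to 10.6 CPM in iSM KO aortas, and the skeletal muscle list to no more than 5.25 CPM in any library. Ryr2, the ryanodine receptor of the sarcoplasmic reticulum in heart, was far more abundant. It had 111, 142 and 128 CPM in Control and 183, 205 and 152 CPM in iSM KO aortas and was higher (log2 fold change 0.50, FDR = 0.0459 from edgeR's quasi-likelihood test), as was Mybpc3 at under 2 CPM. In the list for visceral smooth muscle and pericytes the median over 9 tested genes was 0.31. Of the 9, 5 had a log2 fold change above 0 and 4 below, the lowest at -0.70. In 2 of the 9 every iSM KO library lay below every Control library. Actg2, which it shares with the 35 genes, was higher and Notch3 was lower (log2 fold change -0.34). Abcc9, Pdgfrb, Cspg4 and Rgs5 had log2 fold changes of 0.35, 0.33, 0.34 and 0.31, each with every iSM KO library above every Control library, but did not pass the test.

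**Figure D5:**
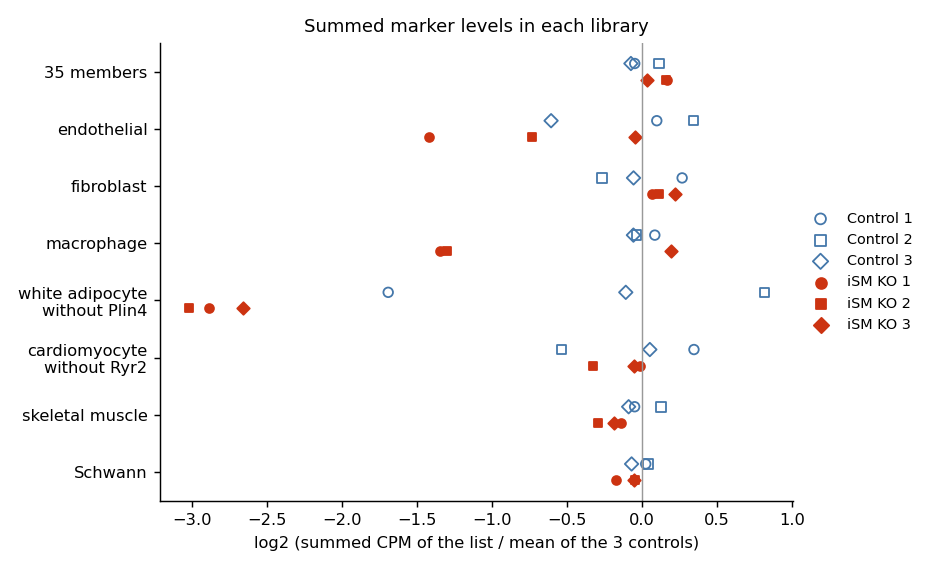
Summed CPM of the 35 smooth muscle genes and of 7 marker lists in each library, as the log2 ratio to the mean of the 3 Control libraries. The white adipocyte list is summed without Plin4 and the cardiomyocyte list without Ryr2. Open symbols are Control and filled symbols iSM KO libraries with a shape for each replicate, and the endothelial and macrophage sums of iSM KO 3 lie with Control while the white adipocyte sums without Plin4 of all iSM KO libraries lie below.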

How the data were processed

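Total RNA from mouse aorta was depleted of ribosomal RNA (Kapa RiboErase) and sequenced as paired ends. The authors mapped and quantified reads with DRAGEN against Ensembl release 101 (mm10) and deposited estimated counts per gene, neither normalised, rounded nor filtered. How multi-mapping reads and strand were handled is not given in the sources used here. Counts were rounded, and genes with a count over 10 in all libraries of at least 1 group were tested, as in the study. The test was edgeR's quasi-likelihood test (version 4.0.16, R 4.3.3, TMM scaling, no covariates) on the 6 libraries, with p-values adjusted after Benjamini and Hochberg over all 16565 genes, after a check on simulated data. That check used a simulated table with 200 changed genes. At an FDR of 0.05, 8.8% of edgeR calls and 16.4% of DESeq2 calls in it were false. Of simulated 1.5-fold changes edgeR recovered 38% and DESeq2 55%, and of 2-fold changes 76% and 83%. In the simulated table small changes were thus often missed, and DESeq2 calls held more false ones. How many genes changed in the aortas is not known, so these shares may not hold for the calls above. The study used DESeq2, which is an alternative here (1.42.0), along with limma-voom (3.58.1), other scalings and filters, a replicate block and each library left out. No pair of libraries differed by as little as sampling noise. Same-numbered libraries did not deviate together (correlations -0.13, -0.05 and -0.11), so numbers were not taken as pairs. Exon lengths, positions and overlaps come from GENCODE M21, and near-identical copies (at least 95% identity over 100 bases) from blastn 2.17.0. The genes named are all 35 members, Prdm16, up to 8 genes past the FDR per related list, other cell types' markers past the FDR or defining a type, and genes that share sequence with a member. Members, lists and rules were chosen with earlier results of these data known. Some further results are left out of this account.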

Additional observations from a re-analysis of the deposited data

How the results depend on the processing

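The 6 higher genes were the same 6 with DESeq2 size factors, without the Rn7s RNAs, with filterByExpr and with limma-voom. DESeq2 and the absence of a filter on low counts added genes and lost none. With each library left out, 3 to 7 of the 35 genes were higher. Without iSM KO replicate 1 only Actg2, Des and Pgm5 remained, without iSM KO replicate 2 Ldb3 and Cnn3 were lost, and Ldb3 was also lost without Control replicate 1 or 3. Actg2, Des and Pgm5 passed in all 6 of these fits and Myocd in 5. The number of lower genes, 0 with edgeR, was 1 (Csrp1) with DESeq2, with limma-voom and with no filter, and 0 to 1 with a library left out, being 1 without Control replicate 3. Actg2 and Des were past a fold change of 2 in every alternative. Leaving out a library moved the genes called over the whole table from 1252 to between 516 (without iSM KO replicate 2) and 1397, with 624 without iSM KO replicate 1. The cause was not tested.

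With the replicate number as a block, 775 genes were called over the whole table and the same 6 of the 35 were higher. The block changed no other call among the 35 genes.

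Log2 fold changes near 0 changed sign. Mrtfb was 0.00 with DESeq2 size factors (0.0017), DESeq2 (0.0030), limma-voom (0.0010), no filter (0.0024), filterByExpr (0.00085) and the block (0.0036), and from -0.18 to 0.14 with a library left out. Synm was -0.0075 with limma-voom, -0.0072 with the block, and from -0.15 to 0.10 with a library left out. With a library left out Acta2 ran from -0.24 to 0.0378, Tagln from -0.0088 to 0.20, Cnn2 from -0.0030 to 0.16, Smtn from -0.0812 to 0.0085, Myl6 from -0.0679 to 0.0252 and Aoc3 from -0.21 to 0.0344, none past the threshold. Across all alternatives 27 to 32 of the 35 genes had a log2 fold change above 0 and the median ran from 0.12 to 0.23.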

Other observations

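In Control, 21, 27 and 9 of the 35 genes lay above their group mean in replicates 1, 2 and 3, and in iSM KO 27, 31 and 5 did, so Control 3 and iSM KO 3 held low values for most of the programme. Over all tested genes 48.8% to 52.0% lay above their group mean in each library. Among genes with a mean of at least 100 CPM these shares were 57.5%, 55.8% and 39.3% in Control and 51.1%, 65.9% and 39.2% in iSM KO, so abundant genes in general were low in the same libraries. Control 3 also had the fewest counts, 24911609, and the highest share of Rn7s RNAs, 28.1%, whereas iSM KO 3 had the lowest such share, 22.8%. The SD of log2 CPM of the 35 genes had a median of 0.15 in Control and 0.09 in iSM KO aortas. Over all tested genes it was 0.19 and 0.13. Most of the 35 genes are abundant, and their SD was not compared with that of genes of similar level.

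Vim, encoding the intermediate filament vimentin of less differentiated smooth muscle cells, had 3456, 3336 and 2630 CPM in Control and 4272, 4388 and 4493 CPM in iSM KO aortas, without overlap but short of the threshold (log2 fold change 0.48, FDR = 0.0564 from edgeR's quasi-likelihood test). Its sign was that of Des, while Col1a1 and Col1a2, in the same list of modulated smooth muscle genes, had log2 fold changes of -0.50 and -0.36. Myh10, the non-muscle myosin heavy chain of embryonic smooth muscle, had -0.27 with groups that did not overlap (FDR = 0.197). These genes were picked after their values were seen.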
